A study of Homo sapiens with 10 samples.

Results

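The genes described here are 48 genes of DNA replication and of the passage from G1 into S phase, picked from the 35606 gene IDs of each table by their symbols. They code for origin licensing factors, the replicative helicase, polymerases, clamp and clamp loader, chromatin assembly factors, E2F factors, and the cyclins, kinases and inhibitors that set the start of S phase. Gene expression was measured by RNA-seq in QGP-1, an established cell line from a human pancreatic neuroendocrine tumor. The 10 samples form 5 groups of 2. In the knockdown experiment, QGP-1 cells with the control guide sgNC were compared with cells carrying the guide sgPIKFYVE-1, a single guide in stable lines made by CRISPR interference (CRISPRi). Both lines share the lentiviral construct, which carries dCas9-KRAB, a Cas9 without nuclease activity fused to a transcriptional repressor, and both passed puromycin selection. The labels call the sgNC cells WT. In the drug experiment, QGP-1 cells labelled WT received DMSO, 1 µM apilimod, an inhibitor of the lipid kinase PIKfyve, or 100 nM Torin-1, an inhibitor of the kinase mTOR. The labels of the drug samples give 24 h of treatment, whereas the paper's figure legends give a shorter time. The comparisons ask how loss or inhibition of PIKfyve, and inhibition of mTOR, change the RNA of these genes.

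As background, replication starts in G1, when the origin recognition complex, CDC6 and CDT1 load the MCM2 to MCM7 helicase onto DNA. CDC45 and the GINS complex then activate the helicase, and DNA polymerases, the sliding clamp PCNA and its loader RFC copy the strands. Cyclin D with CDK4 or CDK6, and cyclin E with CDK2, release E2F transcription factors from RB, and E2F factors switch on many of the replication genes, while the inhibitors p21 (CDKN1A) and p27 (CDKN1B) restrain the kinases.

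E2F factors bind DNA through a short recognition site, so the start sites of the members were searched for it. RefSeq promoter entries of GRCh38.p14, each 300 bases long with 250 bases before and 50 after the start, were found for 39 of the 48 members, some with several starts. CCND1, CCND2, CCNE2, CDK2, E2F8, GINS4, MCM4, MCM5 and RPA2 had no entry. An E2F word (TTTCCCGC, TTTCGCGC, TTTGCCGC or TTTGGCGC, on either strand) was present in 20 of the 51 member promoters (39.2%), belonging to 19 genes, against 3.31% of all 35116 promoters. The CCAAT box was present in 26 of the 51 (51.0%) against 34.6% of all, and the CHR element TTTGAA, known from genes of mitosis, in 0 of the 51 against 15.2% of all. A match is a description of the letters and not a mapped binding site, and other forms of the E2F site were not searched. The member promoters were set beside all promoters without matching for base composition, whose part in these shares was not tested. The stretches below are shown because they carry these words, from a regulator (E2F1), a licensing factor (CDT1), helicase and GINS subunits (MCM2, MCM6, GINS3) and the clamp (PCNA). The E2F words are in capitals, and each stretch reads 5′ to 3′ in the direction of its gene.
E2F1: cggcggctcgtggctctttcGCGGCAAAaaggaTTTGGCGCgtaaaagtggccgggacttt
CDT1: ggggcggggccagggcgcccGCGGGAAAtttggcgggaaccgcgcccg
MCM2: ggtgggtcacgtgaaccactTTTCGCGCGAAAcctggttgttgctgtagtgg
MCM6: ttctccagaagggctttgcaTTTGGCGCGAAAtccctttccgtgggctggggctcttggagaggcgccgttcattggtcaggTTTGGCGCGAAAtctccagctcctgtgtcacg
GINS3: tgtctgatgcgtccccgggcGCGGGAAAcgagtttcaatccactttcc
PCNA: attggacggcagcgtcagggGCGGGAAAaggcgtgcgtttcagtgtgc
The E2F1 stretch lies at chr20:33686378-33686438, reverse strand, that of CDT1 at chr16:88803734-88803781, forward strand, and that of MCM2 at chr3:127598393-127598444, forward strand. The MCM6 stretch lies at chr2:135876502-135876615, reverse strand, that of GINS3 at chr16:58392446-58392493, forward strand, and that of PCNA at chr20:5126654-5126701, reverse strand. In E2F1 the words lie apart on opposite strands, whereas in MCM2 and at both places in MCM6 words on opposite strands overlap.

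The 2 tables were normalized separately, so each treated group was compared with the control of its own table. The step between low values put the depth at 9.30 to 13.6 M reads per sample, so 3 reads are worth 0.227 to 0.329 CPM (counts per 1 M reads), a bound on counting error alone. The targeted gene PIKFYVE (chr2:208266267-208358751, forward strand, GENCODE 29 on GRCh38) was at 101 and 97.5 CPM in sgNC and at 10.9 and 12.5 CPM in sgPIKFYVE-1, 11.8% of the control mean. All 9 neuroendocrine markers passed the filter of a mean of at least 1 CPM in both tables. Of 11 fibroblast, endothelial and leukocyte markers, COL1A1 and PECAM1 passed it, COL3A1, LUM and CD3E were at 0 in all samples, and the summed level of the list was 4.45 to 15.5 CPM. COL1A1 fell in the knockdown (-0.51), a call lost without either sgNC sample or sgPIKFYVE-1 replicate 2. Of the neuroendocrine markers, NCAM1 rose and CHGB, ENO2, SYP and SCG5 fell in the knockdown, NCAM1 rose and SCG2, INSM1 and PCSK1 fell with apilimod, and CHGB, SCG2, PCSK1 and INSM1 rose and ENO2 and SYP fell with Torin-1. Their part in the member values was not tested. Of the members, 24 overlap a gene on the opposite strand and 16 a gene on their own strand, and whether counting used the strand is not given in the sources used here. No source says that replicates came from separate cultures, so p-values measure the spread between these samples only. With 2 samples a group, the groups did not overlap in 9597 of the 13591 genes tested in the knockdown. The numbers were 6852 with apilimod and 9368 with Torin-1, each of 13520 genes. Of 2935 genes called higher in the knockdown, 2929 did not overlap, so a lack of overlap adds little to a call.

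All 48 members were listed in both tables, and 47 passed the filter in each. The exception was CCND2 (cyclin D2), at 0.835 and 0.701 CPM in sgNC, 0.111 and 0.9751 CPM in sgPIKFYVE-1, 0.544 and 1.33 CPM in DMSO, 0.291 and 0.529 CPM in Apilimod and 1.03 and 0.0862 CPM in Torin-1. These values lie close to the detection limit in every group and were not tested. Per kilobase of exon, the DMSO level was highest for PCNA at 226 ± 0.686 CPM per kb (SD, n = 2), followed by MCM7 at 107 ± 2.71, CDK4 at 85.2 ± 0.122, FEN1 at 70.6 ± 2.73 and MCM6 at 69.6 ± 0.396. The ranges of PCNA and MCM7 did not overlap, nor did those of MCM7 and CDK4. The lowest levels per kilobase among tested members were those of CDKN1A at 1.99 ± 0.218 and GINS4 at 2.75 ± 0.166. In sgNC, PCNA also came first at 57.9 ± 4.24 CPM per kb, with CDK4 at 54.1 ± 4.42.

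The controls of the 2 experiments stood far apart for these genes. Set side by side across the separately normalized tables, 45 of 47 members were higher in DMSO than in sgNC, with a median ratio of 3.26, while the median ratio of CPM + 1 over 13223 genes was 0.996. The 35 members that are not cyclins, kinases, inhibitors or E2F factors summed to 1099 and 1093 CPM in sgNC and to 3398 and 3400.2 CPM in DMSO. The mitosis marker list differed the same way, at 947 and 939.9 CPM in sgNC and 4575 and 4592 CPM in DMSO. Construct, selection and the separate tables differ together between these controls and cannot be told apart, so no test was made.

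In cells with sgPIKFYVE-1 the replication genes were higher as a group. Of 47 members tested, 38 rose and 0 fell at an adjusted p under 0.05, where 21.6% of all 13591 genes tested were higher and 20.9% lower. The median log2 fold change, computed on CPM + 1 as are all fold changes here, was 0.62 for the members and -0.0042 for all genes. The fold change was positive in 46 of the 47, against 49.4% of all genes. By unadjusted p under 0.05 the counts were 39 higher and 0 lower, against 3384 and 3319 of the 13591 genes. In these bulk libraries a larger share of cells in S phase and more RNA per cell cannot be told apart. Set side by side across the separately normalized tables, 45 of the 47 members were still higher in DMSO than in sgPIKFYVE-1, with a median ratio of 1.98. The paper reports that PIKFYVE knockdown slowed the growth of its GEP-NET lines, QGP-1 among them. How growth relates to the member values was not tested.

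**Figure D1:**
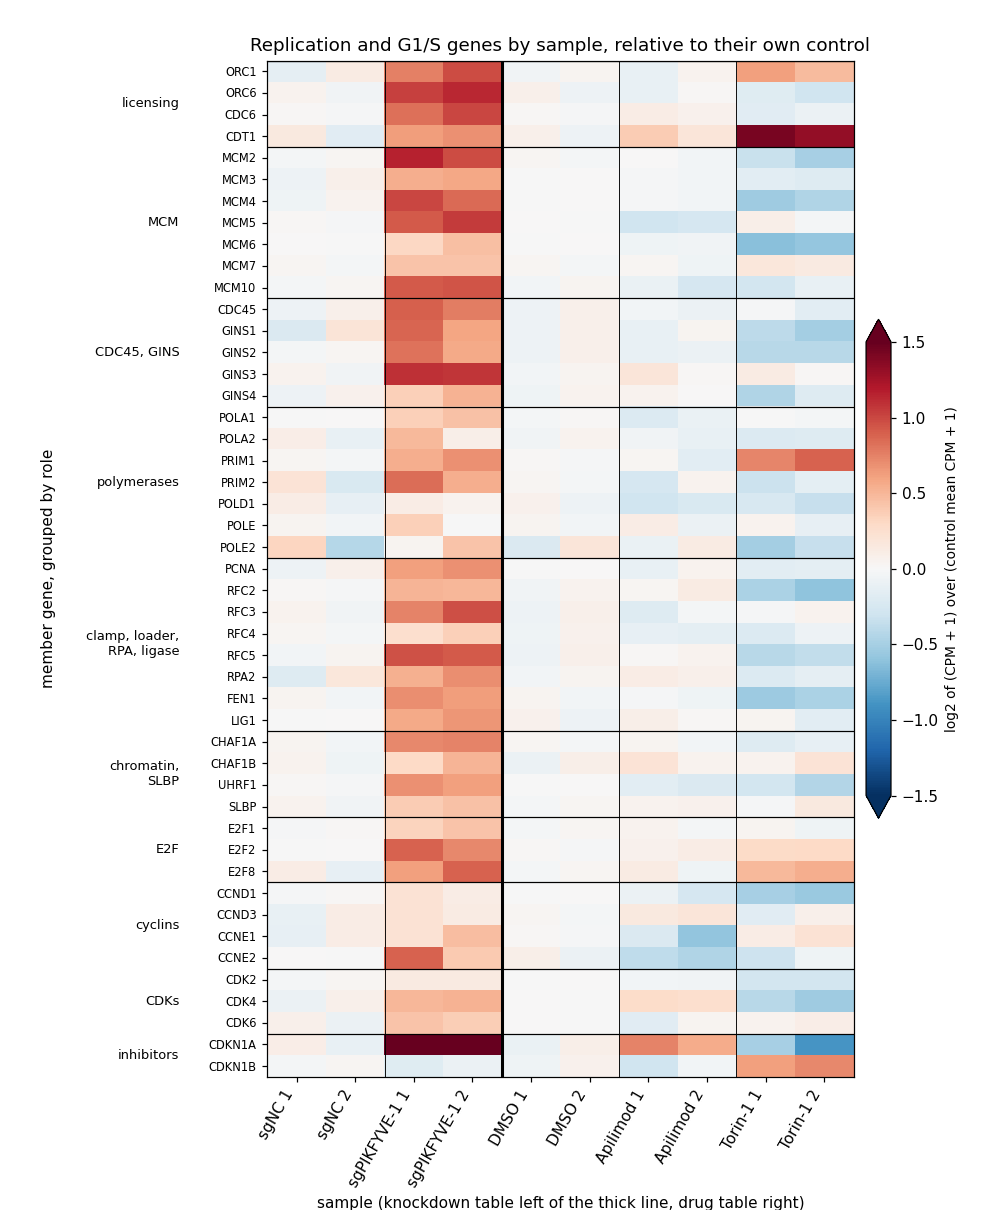
Each cell shows 1 of the 47 tested members in 1 of the 10 samples, as log2 of CPM + 1 over the mean of its own control group (red higher, blue lower), with rows grouped by role. Both sgPIKFYVE-1 columns are red in nearly every row, the Apilimod columns are close to white, and the Torin-1 columns mix red (CDT1, PRIM1, CDKN1B) with blue (MCM6, RFC2, CCND1).

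The licensing factors rose in 4 of 4 cases, with a median log2 fold change of 0.89. ORC6, a subunit of the origin recognition complex, was at 23.5 and 21.7 CPM in sgNC and 47.03 and 50.7 CPM in sgPIKFYVE-1. CDC6, which helps load the helicase, went from 29.9 and 29.3 CPM to 53.05 and 60.3 CPM, and ORC1, the largest subunit of the complex, from 12.9 and 15.5 CPM to 24.6 and 28.9 CPM. For each of these genes both knockdown samples lay above both controls. Their log2 fold changes were 1.08 ± 0.10 (SE) for ORC6, 0.91 ± 0.09 (SE) for CDC6 and 0.87 ± 0.13 (SE) for ORC1, with adjusted p = 3.86e-08, 1.52e-07 and 2.75e-05 by limma. CDT1, the partner of CDC6, rose by a log2 fold change of 0.67.

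The helicase genes rose in 7 of 7 cases, but unequally. MCM2 was at 34.6 and 36.1 CPM in sgNC and 80.2 and 70.4 CPM in sgPIKFYVE-1, a log2 fold change of 1.07 ± 0.08 (SE) with adjusted p = 5.91e-09. MCM5 went from 18.7 and 18.3 CPM to 35.8 and 39.5 CPM, MCM4 from 32.3 and 35.1 CPM to 68.4 and 61.3 CPM, and MCM10, which acts when the loaded helicase is activated, from 12.8 and 13.4 CPM to 25.6 and 26.2 CPM. Each of these 4 genes rose, with log2 fold changes between 0.92 and 1.07, and no knockdown sample overlapped a control. The most abundant subunits rose less, MCM6 by 0.38 ± 0.06 (SE) and MCM7 by 0.43 ± 0.05 (SE). Within single samples the ratio of MCM5 to MCM6 was 0.178 and 0.175 in sgNC and 0.275 and 0.275 in sgPIKFYVE-1. This ratio and the others given here were chosen after the values were seen.

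CDC45 and the 4 GINS genes, which complete the active helicase, rose in 5 of 5 cases. GINS3 changed most of the 5, from 4.69 and 4.30 CPM in sgNC to 10.7 and 10.6 CPM in sgPIKFYVE-1. That is a log2 fold change of 1.09 ± 0.18 (SE) with adjusted p = 9.09e-05, and the groups did not overlap. CDC45, GINS1 and GINS2 rose by 0.84, 0.75 and 0.70, and GINS4 by 0.44, the last with its adjusted p = 0.038 near the threshold and a call lost without either sgNC sample or sgPIKFYVE-1 replicate 2.

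The polymerase genes were the least changed of the replication roles. Of 7 members, 3 rose, namely PRIM2 (0.71) and PRIM1 (0.61), the primase subunits that lay down the RNA primer, and POLA1 (0.40), the catalytic subunit of polymerase alpha. The PRIM2 call was lost with no filter (adjusted p = 0.057) and with no variance trend (adjusted p = 0.0583). POLA2, POLD1, POLE and POLE2 did not pass the test, with log2 fold changes of 0.29, 0.09, 0.18 and 0.28, and in each of these 4 genes the groups overlapped. The 95% interval, which is not adjusted for the number of genes, of POLD1, the catalytic subunit of polymerase delta, was -0.14 to 0.31, and that of POLE, the catalytic subunit of polymerase epsilon, -0.03 to 0.39. So at these 2 genes a change as large as the member median lies outside the interval.

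Genes of the clamp, the clamp loader and lagging-strand maturation rose in 7 of 8 cases, with a median of 0.64. RFC5, a subunit of the clamp loader, was at 11.4 and 12.1 CPM in sgNC and 23.7 and 23.2 CPM in sgPIKFYVE-1, a log2 fold change of 0.94 ± 0.13 (SE) with adjusted p = 9.28e-06 and no overlap. PCNA rose by 0.65, the flap nuclease FEN1 by 0.66 and the ligase LIG1 by 0.62. RFC4 did not pass the test, at 0.30 with adjusted p = 0.0516. FEN1 shares its strand with part of FADS2, a fatty acid desaturase gene whose own log2 ratio of mean CPM + 1 was 0.95, and the share of reads assigned between them was not tested. CHAF1A and CHAF1B of the chromatin assembly factor, UHRF1, which keeps DNA methylation after replication, and SLBP, which binds histone mRNA, rose in 4 of 4 cases, by 0.40 to 0.73. The CHAF1B call was lost without either sgNC sample or sgPIKFYVE-1 replicate 2.

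Among the regulators, CDKN1A (p21, chr6:36676460-36687339, forward strand) rose most of all 47 members. It was at 10.01 and 8.47 CPM in sgNC and at 37.9 and 31.6 CPM in sgPIKFYVE-1, 3.76 times the control mean. The groups were far apart, with a log2 fold change of 1.80 ± 0.14 (SE) and adjusted p = 2.95e-09. CDKN1B (p27) was at 31.5 and 33.01 CPM and 28.4 and 30.4 CPM, and did not pass the test, with a log2 fold change of -0.13 and a 95% interval of -0.34 to 0.08. The p21 RNA was thus higher in the same samples as the replication genes.

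The E2F members rose in 3 of 3 cases. E2F1, an activator, was at 21.8 and 22.3 CPM in sgNC and 28.1 and 29.99 CPM in sgPIKFYVE-1, a log2 fold change of 0.38 ± 0.11 (SE) with adjusted p = 0.00766. E2F2, another activator, and E2F8, a repressor of E2F targets, rose by 0.80 and 0.75. The E2F1 and E2F8 calls were lost without sgPIKFYVE-1 replicate 2, at 0.34 with adjusted p = 0.0502 and 0.62 with adjusted p = 0.0644.

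The 4 tested cyclins moved less as a group, with a median log2 fold change of 0.26, CCNE2 being the exception. CCND1 (cyclin D1) was at 126 and 129 CPM in sgNC and 148 and 138 CPM in sgPIKFYVE-1, and CCNE2 (cyclin E2) at 8.35 and 8.30 CPM and 16.2 and 11.2 CPM. Both passed the test, with log2 fold changes of 0.16 ± 0.06 (SE) and 0.64 ± 0.18 (SE) and adjusted p = 0.0324 and 0.00628. Without sgPIKFYVE-1 replicate 1 they were 0.11 with adjusted p = 0.202 and 0.39 with adjusted p = 0.124, and CCND1 also lost its call without either sgNC sample. NDUFAF6 and INTS8, which overlap CCNE2 on the opposite strand, had log2 ratios of mean CPM + 1 of 0.67 and -0.10 in the knockdown. With apilimod these ratios were 0.13 and -0.21. Whether reads were shared with CCNE2 was not tested. CCND3 was at 26.2 and 30.8 CPM in sgNC and 33.2 and 31.2 CPM in sgPIKFYVE-1, and CCNE1 at 5.38 and 6.55 CPM and 7.12 and 8.63 CPM. Neither passed, with log2 fold changes of 0.17 and 0.35 and 95% intervals of -0.05 to 0.39 and -0.05 to 0.75, although the groups did not overlap. Of the kinases, CDK4 and CDK6, which pair with cyclin D, rose by 0.51 and 0.40, while CDK2, the partner of cyclin E, was at 0.14 and did not pass.

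**Figure D2:**
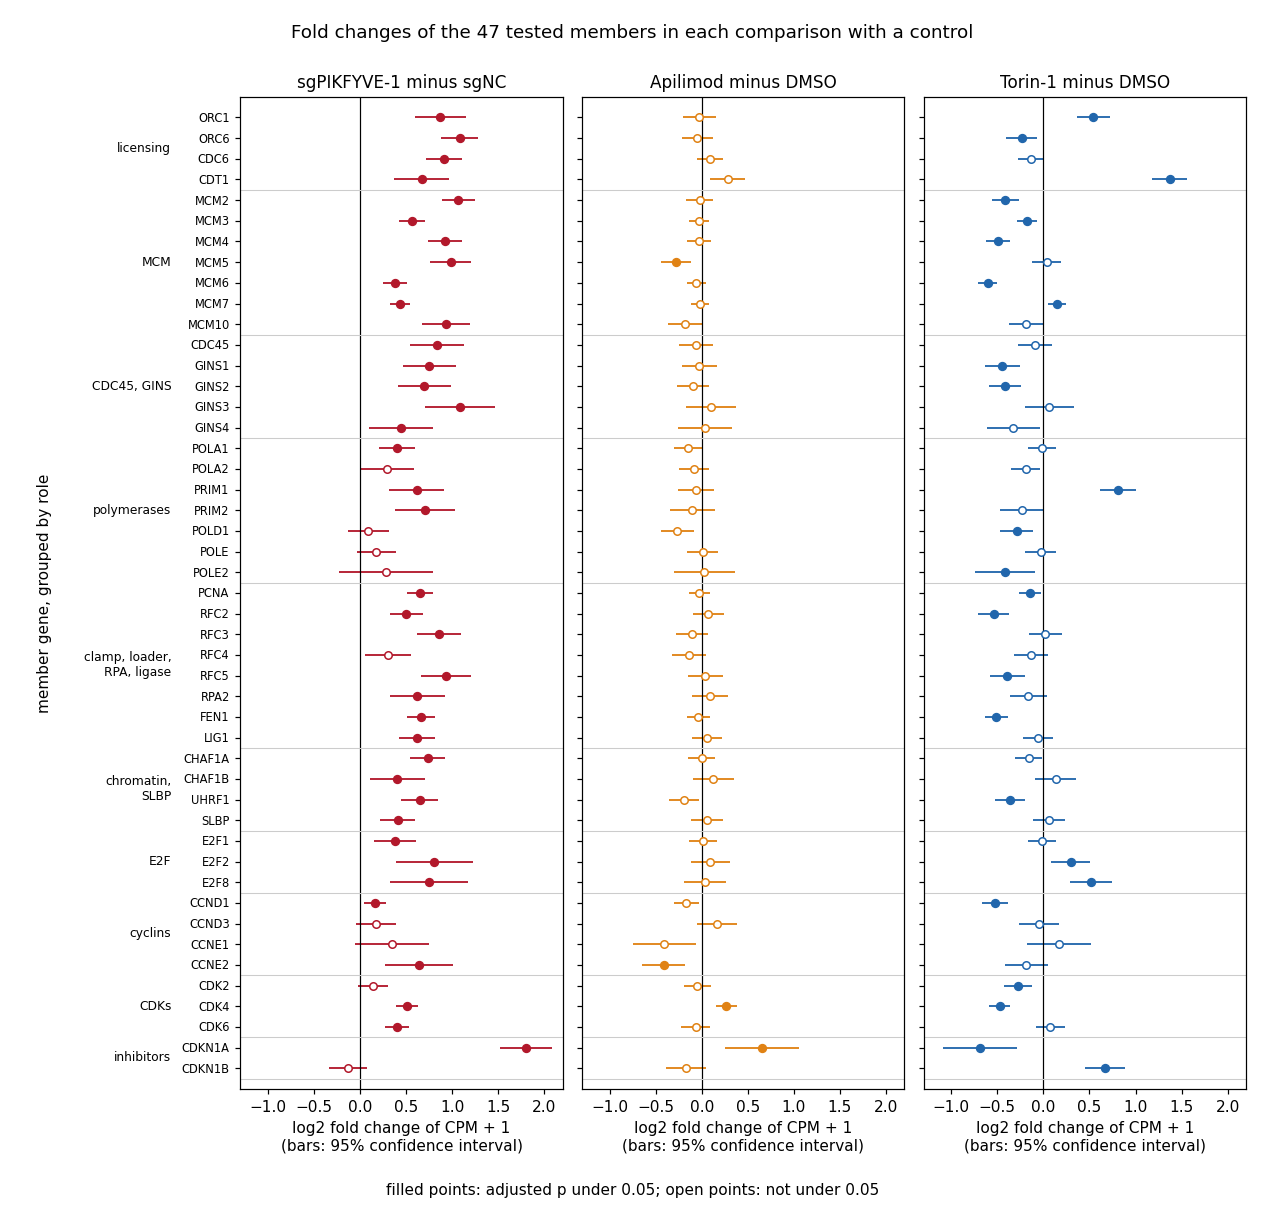
Points are limma log2 fold changes of CPM + 1 for the 47 tested members, bars their 95% confidence intervals, and filled points have an adjusted p under 0.05. Each panel is 1 comparison with its own control. The knockdown panel has 38 filled points, all to the right of 0, the Apilimod panel 4, and the Torin-1 panel 25 on both sides of 0.

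Genes outside the 48 gave the surroundings of this change, where 21.6% of all genes tested were higher and 20.9% lower. Of 35 other genes of pre-replicative complexes, origin firing and forks, 22 rose and 1 fell, among them DSCC1 (1.01), part of an alternative clamp loader, CLSPN (0.98), a mediator of the replication checkpoint, and TICRR (0.79), an origin firing factor. The gene that fell was POLD4, a small polymerase delta subunit, at -0.77. Of 24 other RB-E2F and G1/S regulators, 7 rose and 4 fell, with CDC25A (0.91), a phosphatase that activates CDK2, and MYBL2 (0.91) among the former and the inhibitor CDKN2B (-0.94) among the latter. The other 3 that fell were FBXW7, RBL2 and CCNH, at -0.78, -0.42 and -0.34. Of 12 mitosis markers, 12 rose, with a median of 0.50, and their sum went from 947 and 939.9 to 1372 and 1387 CPM. Of 11 p53 target genes tested, 3 rose and 0 fell, GDF15 by 2.02, MDM2 by 0.42 and TP53INP1 by 0.30. The shares called higher of the 24 regulators and of the p53 target genes were thus not far from that of all genes. POLD4, FBXW7, RBL2, CCNH, MDM2 and TP53INP1 are named because the counts are small, after their values were seen. The part of a changed share of cycling cells in the rise of the 48 genes was not tested.

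With apilimod the members were called about as often as genes in general. Of 47, 2 rose and 2 fell, where 5.75% of all 13520 genes tested were higher and 2.79% lower, and the median log2 fold change was -0.03 against -0.0057 for all genes. Under quantile normalization these medians were -0.060 and -0.027. By unadjusted p under 0.05, 3 were higher and 6 lower, against 1581 and 1292 of the 13520 genes. For 44 of the 47 the 95% interval lay within 0.5 on either side of 0, so larger changes were outside the interval for nearly all of them. The interval lay within these limits for 9117 of the 13520 genes. The summed level of the 48 was 4283 and 4287 CPM in DMSO and 4247 and 4216 CPM in Apilimod.

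The 4 genes that passed are given in full, CDK4 and MCM5 being named for the small count after their values were seen. CDKN1A was at 5.61 and 6.55 CPM in DMSO and 10.9 and 9.45 CPM in Apilimod, a log2 fold change of 0.66 ± 0.19 (SE) with adjusted p = 0.0453. CDK4 was at 270.2 and 269.6 CPM and 328 and 322 CPM, a log2 fold change of 0.27 ± 0.05 (SE) with adjusted p = 0.00458. Both treated samples lay above both controls in these genes. CCNE2 was at 38.9 and 34.3 CPM and 27.8 and 26.5 CPM, a log2 fold change of -0.41 ± 0.11 (SE) with adjusted p = 0.0277. MCM5 was at 69.6 and 69.3 CPM and 56.2 and 58.1 CPM, a log2 fold change of -0.28 ± 0.07 (SE) with adjusted p = 0.0309. Here the treated samples lay below the controls, and the 2 replicates of each group were close for MCM5. TSPAN31, which overlaps CDK4 on the opposite strand, had a log2 ratio of mean CPM + 1 of -0.31. The TSPAN31 ratio was -0.71 in the knockdown and 0.45 with Torin-1, opposite in sign to CDK4 in each comparison. Whether reads were shared between these genes was not tested. Without DMSO replicate 1 none of the 4 passed, with adjusted p between 0.0528 for CDK4 and 0.255 for CDKN1A, and without DMSO replicate 2 CCNE2 did. Without Apilimod replicate 1, or without replicate 2, CDK4 was the 1 of the 4 that passed.

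The other regulators did not pass. CCND1 was at 177 and 177 CPM in DMSO and 167 and 149 CPM in Apilimod (-0.17, 95% interval -0.30 to -0.03). CCNE1 was at 10.2 and 9.95 CPM and 8.54 and 6.35 CPM (-0.41, 95% interval -0.75 to -0.06), its samples not overlapping but the interval wide. CCND3 was at 33.96 and 32.6 CPM and 36.97 and 37.8 CPM (0.16), again without overlap. For CDKN1B the values were 34.9 and 38.1 CPM and 29.5 and 35.4 CPM (-0.17), and for E2F1 82.6 and 85.7 CPM and 87.4 and 82.8 CPM (0.02). In both of these the groups overlapped. Among the licensing factors, CDT1 had the largest value that did not pass, 0.28 with adjusted p = 0.0653.

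Of the 35 other replication genes, 4 rose and 2 fell with apilimod, the largest being MCM9, a relative of the helicase subunits active in repair, at 0.70, which was not called without Apilimod replicate 2. The others were TICRR (0.44), DBF4 (0.36) and POLD2 (0.32), which rose, and DBF4B (-0.33) and WDHD1 (-0.29), which fell. Of the 23 other G1/S regulators tested, CKS1B rose (0.18) and FBXW7, FBXO5, CCNH and CCNA2 fell, at -0.47 to -0.26. These genes are named for the small counts, after their values were seen. The mitosis markers fell in 7 of 12 cases and rose in 0, with a median of -0.26, and their sum was 4575 and 4592 CPM in DMSO and 4009.9 and 4006 CPM in Apilimod. Of the 11 p53 target genes tested 2 rose, TP53INP1 by 1.29 and GDF15 by 0.57. Beside these lists, 5.75% of all genes tested were higher with apilimod and 2.79% lower. The knockdown and apilimod have separate controls. Across the 47 members their log2 fold changes had a Pearson r of 0.39 and a Spearman rho of 0.17, a description over genes that share their libraries.

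**Figure D3:**
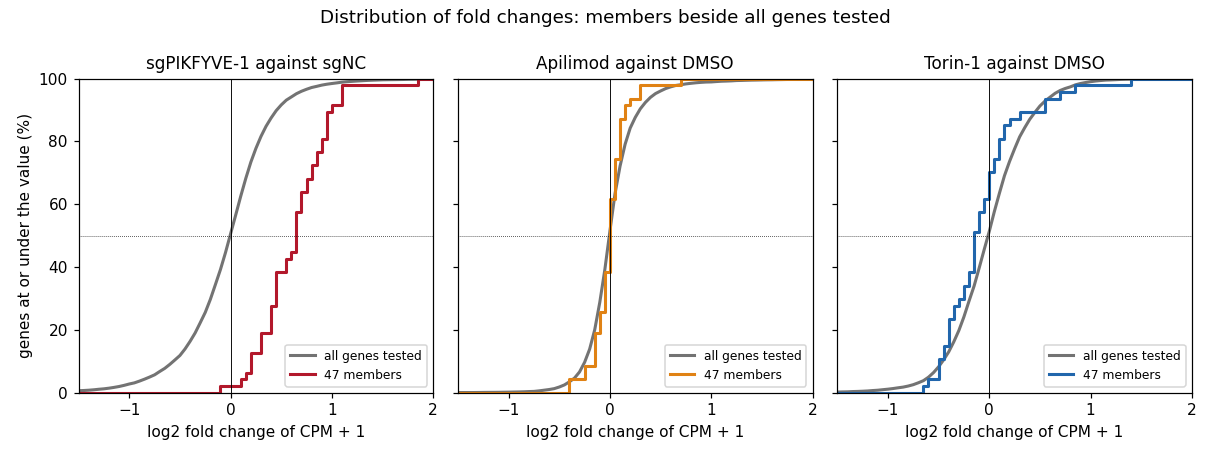
Curves give the percentage of genes (y) with a log2 fold change at or under the value on the x axis, for all genes tested (grey) and for the 47 members (colored), 1 panel per comparison. The member curve lies well to the right in the knockdown (median 0.62), close to that of all genes with apilimod (median -0.03) and slightly to the left with Torin-1 (median -0.16).

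With Torin-1 members were called in both directions. Of 47, 7 rose and 18 fell, where 16.6% of the 13520 genes were higher and 21.8% lower. The share of members that rose was thus a little under that of all genes, and the share that fell was above it. The median log2 fold change was -0.16 against -0.012 for all genes. Under quantile normalization the member median was -0.098. The summed level of the 48 was 3943 and 3891 CPM, below the DMSO samples. The 2 drug comparisons share their DMSO samples.

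CDT1 (chr16:88803213-88809258, forward strand), the licensing factor that is destroyed once S phase begins, rose most. It was at 46.4 and 41.7 CPM in DMSO and 119.5 and 111 CPM in Torin-1, 2.62 times the DMSO mean. The groups lay far apart, with a log2 fold change of 1.37 ± 0.09 (SE) and adjusted p = 5.26e-08. ORC1 also rose, from 57.3 and 61.3 CPM to 91.3 and 82.5 CPM, a log2 fold change of 0.54 ± 0.08 (SE) with adjusted p = 1.75e-04. ORC6 fell by 0.23 on the log2 scale, a call lost without DMSO replicate 1 or Torin-1 replicate 2, and CDC6 did not pass, at -0.13. The RNA of GMNN, whose protein geminin binds and blocks CDT1, fell (-0.38). The ratio of CDT1 to GMNN was 1.01 and 0.764 in DMSO, 1.05 and 0.796 in Apilimod and 3.19 and 2.86 in Torin-1. The Torin-1 ratios stood apart from all others.

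The helicase subunits went different ways. MCM6 was at 285 and 288 CPM in DMSO and 185 and 191 CPM in Torin-1, a log2 fold change of -0.60 ± 0.05 (SE) with adjusted p = 5.68e-07. MCM4, MCM2 and MCM3 fell as well, with log2 fold changes of -0.49, -0.42 and -0.18. The MCM3 call was lost without either DMSO sample or Torin-1 replicate 2. MCM7 rose slightly, by 0.15 ± 0.05 (SE) with adjusted p = 0.021, a call lost without either DMSO sample or without Torin-1 replicate 1. MCM5 and MCM10 did not pass, at 0.03 and -0.19. The ratio of MCM7 to MCM6 within a sample was 1.67 and 1.60 in DMSO, 1.74 and 1.63 in Apilimod and 2.84 and 2.69 in Torin-1, and 1.60 and 1.54 in sgNC and 1.70 and 1.55 in sgPIKFYVE-1. Only the Torin-1 samples, among the 10, were outside the range of the other 8.

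PRIM1, the catalytic primase subunit, rose from 38.9 and 38.2 CPM in DMSO to 64.8 and 72.1 CPM in Torin-1, a log2 fold change of 0.81 ± 0.09 (SE) with adjusted p = 1.38e-05. Its partner PRIM2 did not pass, at -0.23, and the ratio of PRIM1 to PRIM2 was 1.10 and 1.13 in DMSO and 2.34 and 2.31 in Torin-1. PRIM1 overlaps NACA on the same strand, whose log2 ratio of mean CPM + 1 was 0.06. NACA is far more abundant, with means of 439 CPM in DMSO and 457 CPM in Torin-1. The sharing of reads between PRIM1 and NACA was not tested. POLE2 and POLD1 fell, at -0.42 and -0.29, and POLA1, POLA2 and POLE did not pass. The POLE2 value was -0.22 without DMSO replicate 2 and was not called without either Torin-1 sample, and POLD1 was not called without DMSO replicate 1 or Torin-1 replicate 2.

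RFC2, a clamp loader subunit, was at 74.1 and 79.7 CPM in DMSO and 54.9 and 50.1 CPM in Torin-1, a log2 fold change of -0.54 ± 0.08 (SE) with adjusted p = 1.05e-04. FEN1 was at 179.8 and 170.2 CPM and 119.9 and 125 CPM, at -0.51 ± 0.06 (SE) with adjusted p = 1.35e-05, beside a log2 ratio of -1.40 for the overlapping FADS2. In both genes the Torin-1 samples lay below the DMSO samples. With apilimod FADS2 had a log2 ratio of 1.76, while FEN1 did not pass, at 70.6 CPM per kb in DMSO and 68.7 in Apilimod. The sharing of reads between FEN1 and FADS2 was not tested. Under Torin-1 RFC5 also fell (-0.39), a call lost without DMSO replicate 2. PCNA fell by a small amount (-0.15), a call lost when any 1 of the 4 samples compared was left out. GINS1, GINS2 and UHRF1 fell, at -0.45, -0.42 and -0.36. CDC45, GINS3, GINS4, RFC3, RFC4, RPA2, LIG1, CHAF1A, CHAF1B and SLBP did not pass, with values from -0.33 to 0.13.

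The 2 inhibitors moved in opposite directions. CDKN1B was at 34.9 and 38.1 CPM in DMSO and 56.3 and 60.6 CPM in Torin-1, a log2 fold change of 0.66 ± 0.10 (SE) with adjusted p = 1.61e-04. CDKN1A was at 5.61 and 6.55 CPM and 4.01 and 2.85 CPM, a log2 fold change of -0.69 ± 0.19 (SE) with adjusted p = 0.0108. Neither gene overlapped between the groups. The CDKN1A call was lost without DMSO replicate 2 (-0.59, adjusted p = 0.0822) and without Torin-1 replicate 2 (-0.50, adjusted p = 0.0871). CDKN1B RNA was 6.23 and 5.81 times CDKN1A RNA in DMSO, 2.71 and 3.74 in Apilimod and 14.05 and 21.3 in Torin-1, and 3.15 and 3.90 in sgNC and 0.749 and 0.962 in sgPIKFYVE-1. These are ratios of CPM, not of levels per length.

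Cyclin D1 and its kinase fell together. CCND1 was at 177 and 177 CPM in DMSO and 125 and 120.1 CPM in Torin-1, a log2 fold change of -0.53 ± 0.06 (SE) with adjusted p = 2.43e-05, and CDK4 changed by -0.47 ± 0.05 (SE) with adjusted p = 1.04e-05. CDK2 fell (-0.28), a call lost without DMSO replicate 2, and CDK6 did not pass (0.08). CCND3 was at 33.96 and 32.6 CPM in DMSO and 29.3 and 35.2 CPM in Torin-1 (-0.05), and CCNE2 at 38.9 and 34.3 CPM and 29.4 and 34.8 CPM (-0.19). Both overlapped their controls and did not pass. CCNE1 was at 10.2 and 9.95 CPM and 10.99 and 11.9 CPM (0.17, 95% interval -0.18 to 0.51) and did not pass.

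E2F1 was at 82.6 and 85.7 CPM in DMSO and 86.4 and 80.3 CPM in Torin-1, a log2 fold change of -0.01 with a 95% interval of -0.16 to 0.14, and the groups overlapped. The other E2F members rose, E2F8 from 21.5 and 22.5 CPM to 31.2 and 32.5 CPM (0.51 ± 0.11 (SE), adjusted p = 0.00184) and E2F2 by 0.29, the latter a call lost when any 1 of the 4 samples compared was left out.

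**Figure D4:**
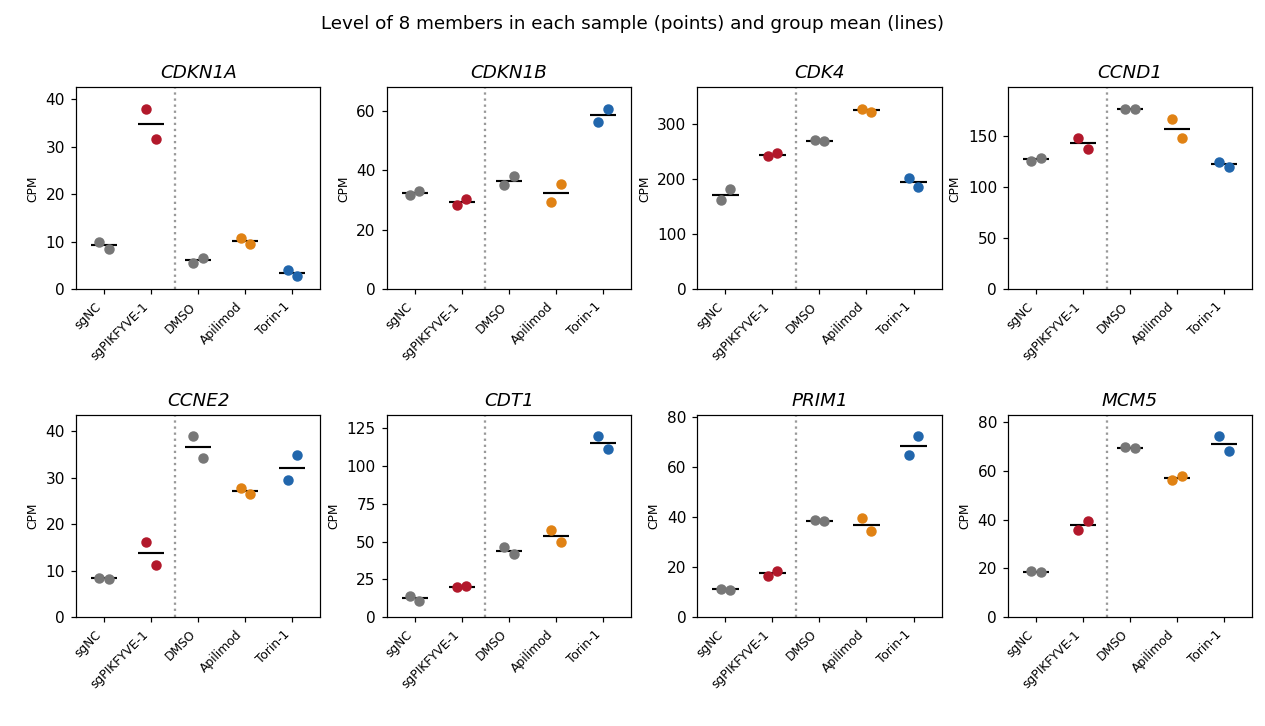
CPM of 8 members in each of the 10 samples (points) with the group mean (black line), all axes starting at 0 and the dotted line separating the 2 tables. CDKN1A is highest in sgPIKFYVE-1 and lowest in Torin-1, CDKN1B, CDT1 and PRIM1 are highest in Torin-1, and CDK4 is lower in Torin-1 and higher in Apilimod than in DMSO.

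Of the 35 other replication genes, 2 rose and 15 fell with Torin-1, POLE4, an accessory subunit of polymerase epsilon, the most, at -0.57, a call lost without DMSO replicate 2 or Torin-1 replicate 1. The genes that rose were ORC3 (0.49) and RFC1 (0.41), named after their values were seen. Of 23 other G1/S regulators 6 rose and 8 fell, where 16.6% of all genes tested were higher and 21.8% lower. Those that rose most were CDKN2B (0.67), an inhibitor of CDK4 and CDK6, E2F7 (0.66), a repressor related to E2F8, and RBL2 (0.64), a relative of RB. Mitosis markers fell in 10 of 12 cases and rose in 0, with a median of -0.39, and summed to 3668 and 3817 CPM. CDC20, CCNB1 and AURKA fell most, at -0.91, -0.84 and -0.71. Of 11 p53 target genes tested, 4 fell and 0 rose. Those that fell were GDF15, MDM2, SESN1 and BAX, at -0.47 to -0.29, named after their values were seen. The part of a changed share of cycling cells in the member values was not tested.

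Compared directly, 17 members were higher and 8 lower in Apilimod than in Torin-1, where 26.2% of genes were higher and 20.5% lower. The members higher in Apilimod were led by CDKN1A, with a log2 difference of 1.34 ± 0.19 (SE) and adjusted p = 5.28e-05, CDK4 (0.74), RFC2 (0.61) and MCM6 (0.54). Those lower in Apilimod were led by CDT1, at -1.09 ± 0.09 (SE) with adjusted p = 2.55e-07, PRIM1 (-0.87), CDKN1B (-0.83), ORC1 and CCNE1 (both -0.57). The CCNE1 call was lost without Torin-1 replicate 2 or Apilimod replicate 2. For CDKN1A and CDK4 the 2 drugs lay on opposite sides of DMSO, whereas for CDT1, PRIM1 and CDKN1B the Torin-1 change made most of the difference. CCND1 was higher in Apilimod by 0.36. For CCND3, CCNE2 and E2F1 the difference did not pass, with 95% intervals of -0.01 to 0.43, -0.46 to 0.00 and -0.12 to 0.18.

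Read across the 3 comparisons with a control, CDKN1A rose with the knockdown and apilimod and fell with Torin-1, and CDK4 did the same. The apilimod calls of both genes, and the Torin-1 call of CDKN1A, were lost in some of the alternative fits given below. Their log2 fold changes kept their sign in every fit. Of the 38 members that rose in the knockdown, 15 were among the 18 that fell with Torin-1 (39.5% and 83.3%), and 6 were among the 7 that rose with it (15.8% and 85.7%), CDT1, E2F2, E2F8, MCM7, ORC1 and PRIM1. Both shares of the Torin-1 lists were close to the 80.9% of the 47 tested members that rose in the knockdown. Members with an E2F word in their promoter entry rose in 16 of 19 cases in the knockdown, with a median of 0.65, against a median of 0.56 for the 20 with an entry and no word (15 rose). With Torin-1 the medians were -0.13 and -0.15. Of the 19 with a word 3 rose and 8 fell with Torin-1, and of the 20 without it 3 rose and 7 fell. Members without a word may carry other forms of the site, so this split cannot tell members with a site from members without. The difference was not tested.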

How the data were processed

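QGP-1 libraries were sequenced by RNA-seq. The labels name ribosomal RNA depletion and the study's methods name poly(A) selection. The authors trimmed reads (Trimmomatic) and scaled CPM by TMM (edgeR), and their processing notes name hg38. The aligner, annotation and strand setting are not given in the sources used here. The deposited values are a signal on the CPM scale, in 2 tables scaled separately (knockdown, drugs). Whole reads could be recovered for only 64.6 to 69.0% of values under 2 CPM (tolerance 0.01 reads), so no count model was run and the test planned for CPM was kept. Genes averaging 1 CPM or more were tested on log2(CPM + 1), which understates changes of low genes, with limma 3.58.1 (lmFit, eBayes with trend, two-sided, R 4.3.3) and Benjamini-Hochberg adjustment over all genes of the table at 0.05. The drug fit held all 3 groups. The fit was first tested on simulated data. Members and lists were chosen with earlier results of these data known. Per-sample values are given for the cyclins, E2F1, CDKN1A and CDKN1B, and for up to 10 members a comparison that passed with groups apart and an absolute log2 fold change of at least 0.5. Alternatives were pseudocount 0.1, no filter, quantile normalization, median centring, no variance trend, a replicate block, only the 2 groups compared, an absolute log2 fold change of at least 0.5, and each sample left out. Promoter and gene positions came from RefSeq (GRCh38.p14) and GENCODE 29.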

Additional observations from a re-analysis of the deposited data

How the results depend on the processing

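The 38 members higher in the knockdown numbered 29 to 39 over the alternatives and 35 to 36 with 1 sample left out, with 0 lower throughout, and 31 kept their call in every fit, the minimum of 0.5 set aside. With Torin-1, 15 of 25 calls were so kept, between the drugs 17 of 25, and with apilimod 0 of 4. Some calls described above as lost without a sample were also lost in other fits. In the knockdown CCND1 lost its call in 6 of the 10 alternative fits. With Torin-1, out of 13 alternative fits, PCNA lost its call in 8, ORC6, MCM3 and MCM7 in 5 each, and CDKN1A in 3. With apilimod, the number higher was 1 under a minimum absolute log2 fold change of 0.5, pseudocount 0.1, no filter or quantile normalization and 0 with no variance trend, and the number lower was 0 under the minimum of 0.5, no filter or no variance trend. Leaving out 1 sample gave 0 to 2 higher and 0 to 2 lower with apilimod, 5 to 7 higher and 12 to 18 lower with Torin-1, and 12 to 16 higher and 7 to 9 lower between the drugs. The minimum of 0.5 left 5 lower with Torin-1, and 4 higher and 5 lower between the drugs, where quantile normalization gave 13 lower. Quantile normalization moved the share of higher among all calls from 67.4 to 55.1% with apilimod.

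E2F1 and CCND3, not called in these comparisons, changed sign. E2F1 with apilimod was -0.016 under quantile normalization and -0.024 to 0.054 with 1 sample left out. With Torin-1 it was 0.041 under quantile normalization, 0.0039 under median centring and -0.067 to 0.037 with 1 sample left out. Between the drugs it was -0.057 under quantile normalization and -0.022 to 0.082 with 1 sample left out. CCND3 with Torin-1 was -0.18 to 0.080 with 1 sample left out. The causes were not tested.

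Samples with the same replicate number were weakly related, with correlations of deviations from the group means of 0.037 to 0.104, so no pairing was used. A replicate block raised the number of genes called from 5772 to 6111 in the knockdown and from 1155 to 1756 with apilimod. With Torin-1 it went from 5202 to 5903, and between the drugs from 6312 to 6960. Among the members the block gave 39 higher in the knockdown and 3 higher and 4 lower with apilimod, where CCND1 then passed. It gave 20 lower with Torin-1 and 21 higher between the drugs. With 2 samples a group and 9.30 to 13.6 M reads each, small changes of low genes such as CCND2 could not be seen.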
